A study of Caenorhabditis elegans with 9 samples.

Results

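The comparison of *sma-9(ok1628)* mutants with wild-type worms was taken from RNA-seq of whole late L2 *Caenorhabditis elegans*, and covers every gene with reads. Its members are 6 of the 9 libraries of the series, the 3 labelled *sma-9* and the 3 labelled wild-type, and the other 3 come from the Smad mutant *sma-3(wk30)*. Libraries were made from polyA RNA of synchronized animals grown on plates at 20 °C, with 3 biological replicates for each genotype, and the series text gives 21% O2 for the cultures. The genotypes were *sma-9(ok1628)*, *sma-3(wk30)* and the wild-type strain N2, and no transgene or drug is named for any of them. Each mutant is a single allele, which the study counts among strong loss-of-function or null alleles, and the age was set by stage only. Each library pools many whole animals, so a level is an average over all tissues of a worm.

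SMA-9 is the worm Schnurri protein, a large zinc finger transcription factor. In *Drosophila* and vertebrates, Schnurri proteins bind DNA together with Smads, the factors that carry signals of the bone morphogenetic protein (BMP) family into the nucleus. In *C. elegans* the BMP-like ligand DBL-1 acts through the receptors SMA-6 and DAF-4, and its Smads are SMA-2, SMA-4 and SMA-3. The pathway is known for body size, male tail patterning, mesoderm fate, fat storage and innate immunity. Loss of SMA-9 gives small worms and can alter the fate of cells of the M lineage.

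Libraries held 69284675 to 79350040 reads on genes for *sma-9* and 69602298 to 73484382 for wild-type. Values are counts per 1000000 reads of a library (CPM), with the library size scaled by the authors' normalization factor. They were computed from the deposited log2 values. Differences are between means of log2(CPM + 1), on which changes of sparsely read genes come out too small. Of 46875 listed genes, 13105 reached 1 CPM in 3 or more libraries and were tested with limma, and a gene was called at a Benjamini-Hochberg adjusted p of at most 0.05 over all of these. The library names carry numbers whose meaning is not stated: 7, 8 and 10 for *sma-9* replicates 1, 2 and 3, against 6, 7 and 9 for wild-type replicates 1, 2 and 3. With the genotype in the model, 2695 genes (20.6%) differed between the numbers 8 to 10 and the numbers 6 and 7, 1242 of them higher (9.48%) and 1453 lower (11.1%) in the numbers 8 to 10. The 2 ranges each hold both genotypes. The *sma-9* difference was therefore also taken within each range (1 *sma-9* library against 2 wild-type libraries for the numbers 6 and 7, and 2 *sma-9* libraries against 1 wild-type library for the numbers 8 to 10), and from a model with a term for the range (library number block).

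In the libraries labelled *sma-9*, 901 of the 13105 genes (6.88%) were called against wild-type. Of these, 396 (3.02% of the tested genes) were higher and 505 (3.85%) lower, and these shares are the background for the counts given for each gene group. The median log2 difference was 0.72 among higher genes and −0.56 among lower genes, and at least 2-fold changes were found in 127 higher and 77 lower genes. The 3 *sma-9* values of all 901 genes lay outside the range of the 3 wild-type values, which held for 22.2% of all tested genes. With the library number block, 1490 genes (11.4%) were called, 621 higher (4.74%) and 869 lower (6.63%), and these included 891 of the 901 in the same direction. With equal library totals, without the authors' normalization factors, 554 genes were higher and 261 lower, and the median of all genes moved to 0.11, so the balance of directions depends on the scaling. When the spread was estimated from the 6 libraries alone, 445 genes were called.

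**Figure D1:**
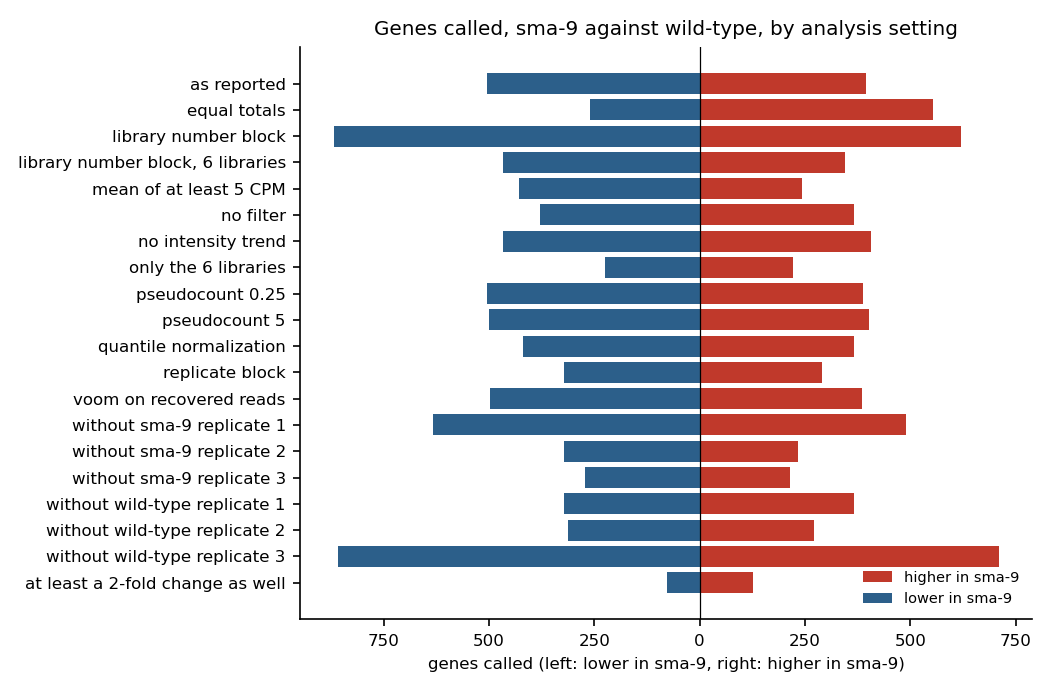
Bars give the number of genes called in *sma-9* against wild-type under each analysis setting, higher in *sma-9* to the right and lower to the left. The counts without 1 library run between 487 without *sma-9* replicate 3 and 1569 without wild-type replicate 3.

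The sequencing of *sma-9* itself gave 173, 213 and 219 CPM in the 3 libraries labelled *sma-9*, against 87.6, 89.4 and 119.1 CPM in wild-type (WBGene00004862, chromosome X, 10769282 to 10782973 in WBcel235). The transcript was thus more abundant in the libraries of the mutant (log2 difference 1.03, standard error 0.13, adjusted p = 0.00202), and the difference was 0.96 within the numbers 6 and 7 and 0.85 within the numbers 8 to 10. The extent of the *ok1628* deletion is not given in the sources used here, and a count over the whole gene cannot show a missing part of it. The level of *sma-9* is therefore no check of the label, and directions below rest on the labels.

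Among 20 tested genes of the DBL-1 pathway, 3 were higher and 0 lower, with a median log2 difference of 0.13, against 0.005 over all tested genes. Besides *sma-9*, the calls were *lon-1* and *sma-3*. *lon-1*, which encodes a secreted CRISP family protein that limits body length and is known to be repressed by DBL-1 signaling, had 303, 241 and 234 CPM in *sma-9* libraries, against 100.5, 116 and 95.3 CPM in wild-type (log2 difference 1.305, standard error 0.11, adjusted p = 0.000195). The Smad gene *sma-3* had 38.3, 37.2 and 36.6 CPM in *sma-9* libraries, against 26.5, 21.4 and 22.4 CPM in wild-type (log2 difference 0.66, standard error 0.09, adjusted p = 0.00294). For both genes every *sma-9* value was above every wild-type value, and no called gene overlapped between the groups.

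The ligand gene *dbl-1* had 29.4, 26.6 and 30.6 CPM in *sma-9* libraries, against 26.7, 30.8 and 29.5 CPM in wild-type, and the groups overlapped (log2 difference −0.01, adjusted p = 0.981). The type I receptor gene *sma-6* differed by 0.22 (adjusted p = 0.21) and the type II receptor gene *daf-4* by 0.30 (adjusted p = 0.411). The other Smad genes *sma-2* and *sma-4* differed by 0.18 and 0.13, with adjusted p-values of 0.376 and 0.39. *sma-10*, which encodes a membrane protein that promotes receptor signaling, differed by 0.49 (adjusted p = 0.109) and was called with the library number block (0.34, adjusted p = 0.0211), without *sma-9* replicate 1 and without wild-type replicate 3. None of these 6 genes was called in the 9-library fit described above. The DBL-1 list held 5 higher and 0 lower genes with the block, and likewise without wild-type replicate 3.

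The largest increase was in *lips-11*, a gene of the lipase-related *lips* class (WBGene00020472, chromosome II, 1108841 to 1111001). It had 669, 525 and 729 CPM in *sma-9* libraries, against 1.59, 1.94 and 0.913 CPM in wild-type (log2 difference 8.02, standard error 0.25, adjusted p = 3.74e-07). Its neighbours *lips-12* and *lips-13* rose as well. *lips-12* had 7.36, 4.26 and 6.55 CPM in *sma-9* libraries, against 0, 0.0589 and 0.0285 CPM in wild-type, where it lay near the level of no reads. *lips-13* had 13.7, 10.2 and 13.9 CPM in *sma-9* libraries, against 0.135, 0.133 and 0.171 CPM in wild-type (log2 differences 2.75 and 3.56). The 3 genes lie side by side on chromosome II, and reads that fit more than one of them could have been divided by the authors' counting. The other 9 tested genes of the class were not called.

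*asns-2*, which encodes an asparagine synthetase, had 753, 699.5 and 652 CPM in *sma-9* libraries, against 87.3, 104.4 and 46.7 CPM in wild-type (log2 difference 3.20, standard error 0.24, adjusted p = 9.45e-05; WBGene00019730, chromosome X, 8748434 to 8750941). Its paralog *asns-1* was not called (log2 difference 0.06, adjusted p = 0.944). *zip-10*, the gene of a bZIP transcription factor, had 35.9, 22.7 and 31.4 CPM in *sma-9* libraries, against 5.53, 5.74 and 2.98 CPM in wild-type (log2 difference 2.44, standard error 0.24, adjusted p = 0.000383). The wild-type library with number 9 was the lowest of all for both *asns-2* and *zip-10*, and the differences within each number range were 2.97 and 3.83 for *asns-2* and 2.47 and 2.799 for *zip-10*.

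The C-type lectin gene *clec-60*, which is known for its response to bacterial infection, had 24.9, 16.52 and 20.0 CPM in *sma-9* libraries, against 1.71, 0.663 and 1.33 CPM in wild-type (log2 difference 3.28, adjusted p = 1.85e-05). *clec-76*, of the same class, had 34.8, 44.3 and 46.3 CPM in *sma-9* libraries, against 4.49, 3.81 and 9.77 CPM in wild-type (log2 difference 2.69, adjusted p = 0.000553). Genes without an assigned role were among the largest increases too. *C32H11.4* had 245, 350.3 and 335 CPM in *sma-9* libraries, against 6.97, 7.17 and 13.6 CPM in wild-type (log2 difference 4.96, adjusted p = 4.42e-06). *B0416.4* had 10.3, 9.05 and 7.98 CPM in *sma-9* libraries, against 0.194, 0.0589 and 0.0285 CPM in wild-type (log2 difference 3.21, adjusted p = 6.71e-07), so that it was nearly without reads in wild-type. The remaining 3 of the 12 largest increases were *Y41C4A.32* (2.801), *C08E3.13* (2.65) and *Y57G11C.8* (2.31). *Y41C4A.32* lost its call under 5 of the 18 alternatives, and the other 11 kept theirs under each alternative in which they were tested.

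The largest decrease was in *fat-7*, which encodes a Δ9 desaturase that makes oleic acid (WBGene00001399, chromosome V, 7151353 to 7153146). It had 2.94, 3.62 and 2.796 CPM in *sma-9* libraries, against 67.03, 85.6 and 123 CPM in wild-type (log2 difference −4.45, standard error 0.19, adjusted p = 2.05e-06). *fat-5*, the gene of a Δ9 desaturase that prefers palmitic acid (WBGene00001397, chromosome V, 17725004 to 17726818), had 3.34, 2.83 and 1.36 CPM in *sma-9* libraries, against 34.7, 42.7 and 43.7 CPM in wild-type (log2 difference −3.60, standard error 0.21, adjusted p = 1.87e-05). Both lay outside the wild-type range in every *sma-9* library, as did all 901 called genes.

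*haf-6*, which encodes an ABC transporter (WBGene00001816, chromosome I, 1162880 to 1175809), had 8.604, 7.69 and 7.98 CPM in *sma-9* libraries, against 65.4, 62.4 and 60.7 CPM in wild-type, with little spread in either group (log2 difference −2.81, standard error 0.07, adjusted p = 5.99e-08). *srw-85*, a predicted chemoreceptor gene, had 1.195, 1.15 and 1.21 CPM in *sma-9* libraries, against 29.1, 24.5 and 25.7 CPM in wild-type (log2 difference −3.65, standard error 0.09, adjusted p = 5.99e-08). *hmit-1.1*, the gene of a proton and myo-inositol symporter, had 5.08, 2.87 and 3.30 CPM in *sma-9* libraries, against 33.5, 28.7 and 15.5 CPM in wild-type (log2 difference −2.46, standard error 0.28, adjusted p = 0.0011). Its level was lower in the numbers 8 to 10 in both genotypes (term for the range −0.76, adjusted p = 0.0176), and its difference was −2.40 within the numbers 6 and 7 and −2.02 within the numbers 8 to 10.

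The other large decreases were in lectin genes, *srlf-4* and pseudogenes. *srlf-4* had 2.18, 1.203 and 1.27 CPM in *sma-9* libraries, against 26.4, 44.1 and 24.9 CPM in wild-type (log2 difference −3.66, adjusted p = 2.19e-05), and it lies directly beside *C32H11.4*, which went the other way. The lectin genes *clec-47*, *clec-66* and *clec-206* differed by −2.95, −2.34 and −2.27. The pseudogene *WBGene00235319* on chromosome V had 0, 0 and 0.0350 CPM in *sma-9* libraries, against 4.52, 4.46 and 4.41 CPM in wild-type, and the fitted difference of −2.43 depends on the constant added to the CPM. *WBGene00014954* and *WBGene00014955*, neighbours on chromosome V, had few reads in all *sma-9* libraries, with 0.148, 0.0668 and 0.233 CPM for *WBGene00014955*, against 10.1, 7.70 and 4.56 CPM in wild-type. They form a run of lower genes with *Y102A5C.36* (chromosome V, 16926922 to 16930063), which had 0 reads in every *sma-9* library. Whether the low counts of these neighbours share a cause was not tested.

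**Figure D2:**
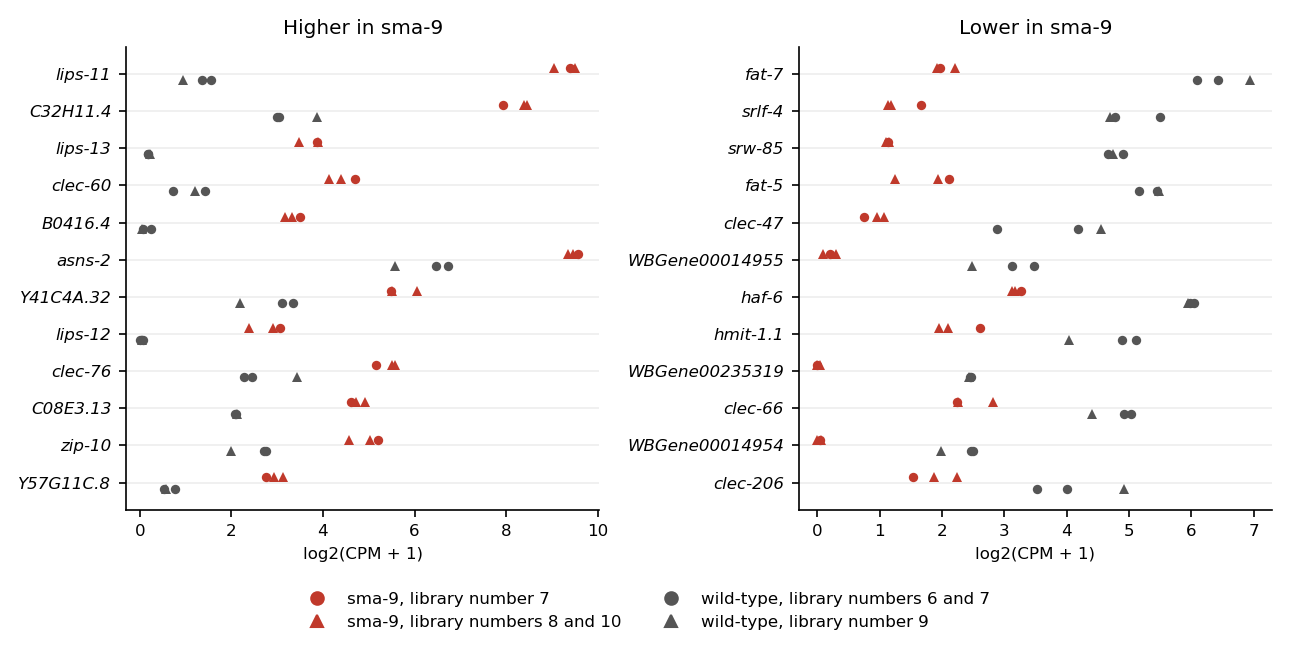
Each point is 1 library on the log2(CPM + 1) axis, for the 12 genes with the largest increase and the 12 with the largest decrease in *sma-9*, with *sma-9* points drawn above wild-type points in each row. Circles are library numbers 6 and 7, triangles numbers 8 to 10. The genes were chosen among calls without overlap, so in each row the *sma-9* points stand apart from the wild-type points.

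The called genes were next read by tissue, with lists of marker genes. Of 15 tested intestine markers, 0 were higher and 7 lower (46.7%, against 6.88% of all tested genes), and 13 of the 15 log2 differences were below 0 (median −0.44). The summed level of the 15 markers was 5661 to 6973 CPM in *sma-9* libraries, against 7922 to 9345 CPM in wild-type, with no overlap and no marker at 0 reads. Sums that were lower in *sma-9* without overlap were also found for pharynx, hypodermis, body wall muscle, and coelomocyte and M lineage markers, so a lower sum was not particular to the intestine. These sums rest on the authors' normalization factors, 0.978 to 1.08 in *sma-9* and 0.924 to 1.01 in wild-type libraries. With equal library totals the ranges overlap for hypodermis, body wall muscle, and coelomocyte and M lineage markers. They stay apart for intestine and, narrowly, for pharynx. In whole worms, fewer cells of a type and less RNA per cell cannot be told apart. The median was −0.39 within the numbers 6 and 7 and −0.33 within the numbers 8 to 10, and the block called 0 higher and 7 lower. The count was 1 when only the 6 libraries were used, 3 without *sma-9* replicate 3 or wild-type replicate 2, 4 without wild-type replicate 1 and 9 without wild-type replicate 3, always of lower genes.

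*pho-1*, which encodes an intestinal acid phosphatase, had 93.1, 107 and 108 CPM in *sma-9* libraries, against 168, 168 and 177 CPM in wild-type (log2 difference −0.73, standard error 0.07, adjusted p = 0.00049), and was called under all 18 alternatives. *pept-1*, the gene of the intestinal oligopeptide transporter, had 241, 305 and 321 CPM in *sma-9* libraries, against 397, 391 and 478 CPM in wild-type (log2 difference −0.55, adjusted p = 0.0248). *vha-6*, the gene of the V-ATPase a-subunit of the intestine, had 429, 506 and 382 CPM in *sma-9* libraries, against 668, 622 and 619 CPM in wild-type (log2 difference −0.54, adjusted p = 0.0137). The intermediate filament gene *ifb-2* and the microvillus actin gene *act-5* differed by −0.54 and −0.50. *elt-2*, the GATA factor gene of the intestine, fell least among the 7 (log2 difference −0.36, adjusted p = 0.0149). *pept-1* lost its call under 5 and *ifb-2* under 7 of the 18 alternatives, among them quantile normalization for both.

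The *asp* class of aspartyl proteases, many of which are made in the intestine, had 3 of 11 tested genes lower and 0 higher (median −0.44). *asp-13* had 237, 218 and 229.7 CPM in *sma-9* libraries, against 428, 420.4 and 435 CPM in wild-type (log2 difference −0.91, adjusted p = 0.000383). *asp-5* had 614, 674 and 510.4 CPM in *sma-9* libraries, against 1104, 1032 and 1013 CPM in wild-type (log2 difference −0.82, adjusted p = 0.00249). The amino acid transporter class *aat* had 3 of 9 tested genes lower and 0 higher, with *aat-4* leading (log2 difference −0.71, adjusted p = 0.00661). Without wild-type replicate 3 the *asp* class had 1 higher and 5 lower genes.

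Marker lists of most other tissues held few calls. Of 15 body wall muscle markers, 14 hypodermis markers, 20 pan-neuronal genes, 13 neurotransmitter genes, 7 glia and sheath markers, 23 germline markers, 3 somatic gonad markers and 9 excretory system markers tested, 0 were called in limma or in voom, and 14 of these genes had an unadjusted p under 0.05 in limma. No share over all tested genes is given for the unadjusted p-values, so the 14 have no background to be read against. Each of these lists held at most 2 calls under any of the 18 alternatives. The summed level of hypodermis markers was 2106 to 2499.8 CPM in *sma-9* libraries, against 2566 to 2878 CPM in wild-type, and that of body wall muscle markers 18551 to 20391 CPM in *sma-9* libraries, against 20801 to 23966 CPM in wild-type. Neither pair of ranges overlapped with the authors' normalization factors, but both pairs overlap with equal library totals. The medians of these 8 lists ran between −0.14 for body wall muscle and 0.12 for pan-neuronal genes. For some of them the library number range carried larger values than the genotype: the term for the range had a median of −0.21 for germline and 0.24 for pan-neuronal genes, with 9 of 23 germline markers called lower and 10 of 20 pan-neuronal genes called higher in the numbers 8 to 10. With that term in the model, 1 pan-neuronal, 1 neurotransmitter and 1 body wall muscle marker were called lower and 1 excretory marker higher.

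Among 8 seam cell markers, 1 was higher and 0 lower. This gene, *nhr-74*, encodes a nuclear hormone receptor, and it had 90.2, 96.6 and 110.5 CPM in *sma-9* libraries, against 16.42, 15.1 and 35.1 CPM in wild-type (log2 difference 2.205, standard error 0.31, adjusted p = 0.00311). The summed level of the 8 markers was 198 to 241 CPM in *sma-9* libraries, against 103 to 155 CPM in wild-type, with *nhr-74* included. Without *nhr-74* the ranges overlap, so the gap rests on that gene. Of 15 pharynx markers, 1 was higher and 1 lower, while 13 of the 15 log2 differences were below 0 (median −0.22). Without *sma-9* replicate 1, 1 pharynx marker was higher and 6 were lower. The summed level of these 15 markers was 949.8 to 1479 CPM in *sma-9* libraries, against 1587 to 1970.1 CPM in wild-type. The pharyngeal gland gene *phat-5* had 9.46, 12.2 and 13.9 CPM in *sma-9* libraries, against 1.78, 1.24 and 4.56 CPM in wild-type (log2 difference 1.96, adjusted p = 0.00891). The pharyngeal myosin gene *myo-2* had 336, 323 and 221 CPM in *sma-9* libraries, against 556, 439 and 611 CPM in wild-type (log2 difference −0.88, adjusted p = 0.0142). Of 10 markers of coelomocytes and the M lineage, 1 was lower: *lgc-26*, which is expressed in coelomocytes, with 11.4, 15.3 and 12.5 CPM in *sma-9* libraries, against 21.3, 19.9 and 19.6 CPM in wild-type (log2 difference −0.60, adjusted p = 0.00806). The summed level of these 10 markers was 184 to 205 CPM in *sma-9* libraries, against 227 to 237 CPM in wild-type. With equal library totals these ranges overlap.

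**Figure D3:**
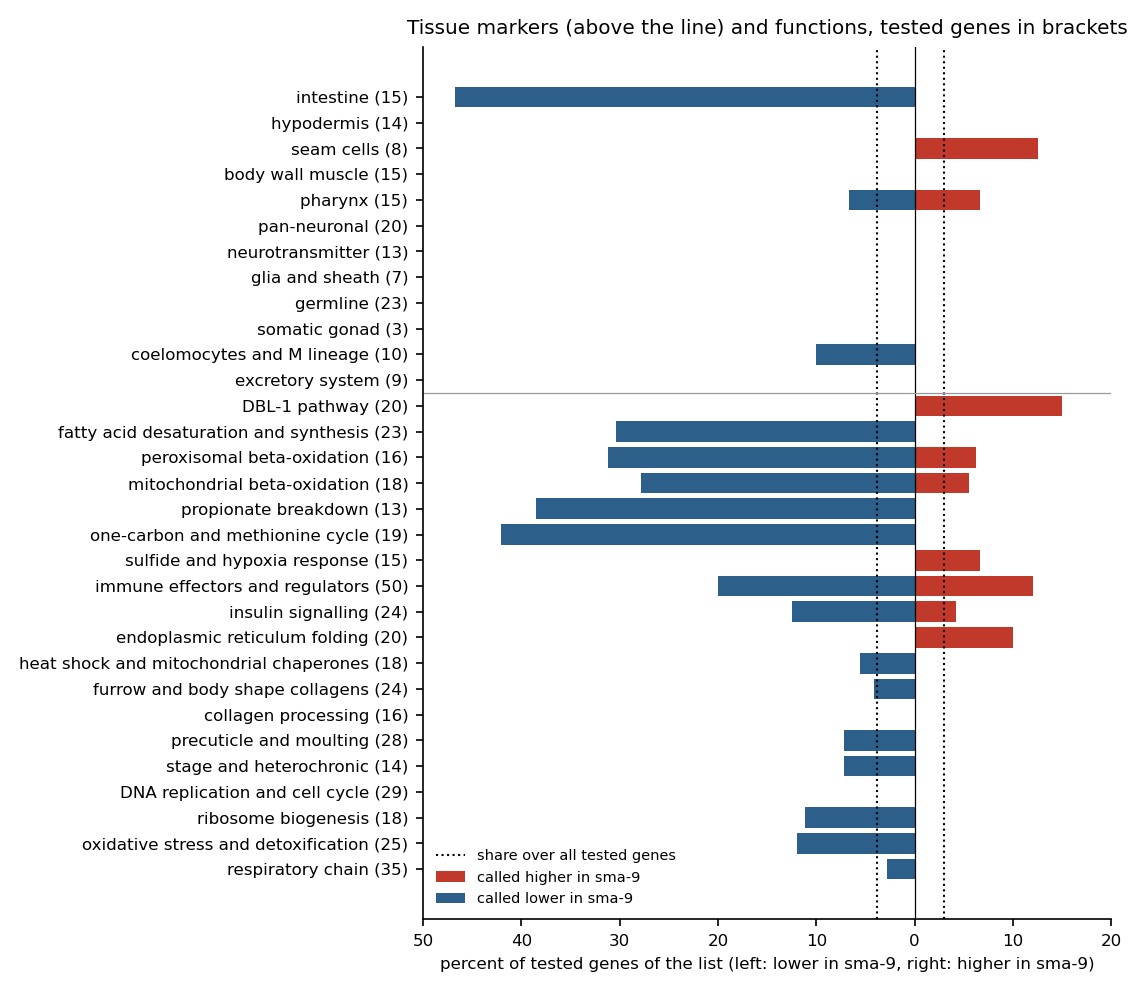
Bars give the percent of the tested genes of each marker or function list that were called higher (right) or lower (left) in *sma-9* than in wild-type, and dotted lines give the shares over all tested genes, 3.02% and 3.85%. The longest bars are to the left, for intestine markers (7 of 15) and the one-carbon and methionine cycle (8 of 19).

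Calls among lipid synthesis genes were all decreases. Of 23 tested genes of fatty acid desaturation and synthesis, 0 were higher and 7 lower (30.4% called), and 21 of the 23 log2 differences were below 0 (median −0.18). Over the 18 alternatives the list held 4 to 8 calls, all lower, with 4 when only the 6 libraries were used. Besides *fat-7* and *fat-5*, the third Δ9 desaturase gene *fat-6* had 399, 312 and 308 CPM in *sma-9* libraries, against 534, 613 and 539.5 CPM in wild-type (log2 difference −0.73, standard error 0.11, adjusted p = 0.00445). *fat-6* and *fat-7* are close paralogs, so the authors' counting could have moved reads between them. *acs-22*, which encodes a fatty acid transport protein with acyl-CoA synthetase activity, had 119.03, 118 and 98.1 CPM in *sma-9* libraries, against 155, 178 and 159.5 CPM in wild-type (log2 difference −0.55, adjusted p = 0.00745). *nhr-80*, a nuclear hormone receptor gene whose product is known to promote Δ9 desaturase expression, fell by less (log2 difference −0.45, adjusted p = 0.0163), as did the elongase gene *elo-1* (log2 difference −0.43, adjusted p = 0.0146) and *let-767* (log2 difference −0.34, adjusted p = 0.014). *let-767* lost its call under 4 of the 18 alternatives, equal totals and quantile normalization among them. *lbp-8*, the gene of a lysosomal lipid chaperone, had 0.738, 0.749 and 0.711 CPM in *sma-9* libraries, against 3.44, 2.42 and 3.59 CPM in wild-type (log2 difference −1.25, adjusted p = 0.00164).

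Calls among genes of fatty acid breakdown were mostly decreases. Of 16 tested genes of peroxisomal β-oxidation, 1 was higher and 5 lower (median −0.33). *acox-1.2*, which encodes an acyl-CoA oxidase, had 238, 231 and 177 CPM in *sma-9* libraries, against 582, 733 and 868 CPM in wild-type (log2 difference −1.75, standard error 0.17, adjusted p = 0.000351), and *acox-1.4* differed by −0.95 (adjusted p = 0.00202). *ech-8* had 9.37, 11.3 and 9.29 CPM in *sma-9* libraries, against 22.6, 20.8 and 22.2 CPM in wild-type (log2 difference −1.06, adjusted p = 0.000857). Its neighbour and paralog *ech-9* went the other way, with 10.3, 7.11 and 11.5 CPM in *sma-9* libraries, against 4.58, 2.39 and 4.04 CPM in wild-type (log2 difference 1.197, adjusted p = 0.013). Peroxisome assembly genes pointed the same way as the 5 lower genes: of 11 tested *prx* genes, 3 were lower and 0 higher, *prx-6* (−0.58), *prx-3* (−0.58) and *prx-1* (−0.57). *prx-1* and *prx-6* lost the call under equal totals, whereas *prx-3* kept it under all 18 alternatives. Without *sma-9* replicate 3 or wild-type replicate 1, 3 lower genes of peroxisomal β-oxidation were called, and without *sma-9* replicate 3 the call of *ech-9* was lost.

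Of 18 tested genes of mitochondrial β-oxidation, 1 was higher and 5 lower (median −0.32). The one higher gene was *hacd-1*, a hydroxyacyl-CoA dehydrogenase gene, with 105, 101 and 137 CPM in *sma-9* libraries, against 54.4, 44.1 and 64.6 CPM in wild-type (log2 difference 1.06, adjusted p = 0.00336). The lower genes were *ech-1.1* (−0.90), *ech-6* (−0.72), *acdh-1* (−0.71), *ech-7* (−0.50) and *acdh-12* (−0.38). *ech-6* and *acdh-1* are also members of the propionate list, in which 5 of 13 tested genes were lower and 0 higher. Propionate is broken down either through methylmalonyl-CoA, which needs vitamin B12, or through a shunt that does not. *mmaa-1*, of the B12-dependent route, had 98.2, 96.1 and 92.9 CPM in *sma-9* libraries, against 166, 173 and 128 CPM in wild-type (log2 difference −0.69, adjusted p = 0.0085). *acdh-1*, the first enzyme gene of the shunt, had 2328, 1866 and 1963 CPM in *sma-9* libraries, against 3364, 3928 and 2804 CPM in wild-type (log2 difference −0.71, adjusted p = 0.024). *hphd-1* and *alh-8* differed by −0.90 and −0.47. *acdh-1*, *ech-6* and *hphd-1* each lost the call under 6 of the 18 alternatives, among them the fits without wild-type replicate 1, wild-type replicate 2, *sma-9* replicate 2 or *sma-9* replicate 3, whereas *mmaa-1* kept it under all 18. In each of those 4 fits without a library, 1 lower gene was called in the propionate list and 1 in the mitochondrial list. Under the 18 alternatives *acdh-12* lost its call 11 times, *alh-8* 8 times and *ech-1.1* 7 times.

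Of 19 tested genes of the one-carbon and methionine cycle, 8 were lower and 0 higher (42.1% called), but the median of the list was −0.07, since 7 members lay above 0. *mtrr-1*, which encodes methionine synthase reductase, had 151, 137 and 149 CPM in *sma-9* libraries, against 338, 345 and 333 CPM in wild-type (log2 difference −1.21, standard error 0.08, adjusted p = 3.94e-05). *pmt-2*, the gene of a phosphoethanolamine methyltransferase that serves phosphatidylcholine synthesis, had 511, 579 and 448 CPM in *sma-9* libraries, against 1211, 1128 and 1099.6 CPM in wild-type (log2 difference −1.17, standard error 0.10, adjusted p = 0.000227). *nhr-114*, a nuclear hormone receptor gene linked to B12 and S-adenosylmethionine supply, had 199.6, 145 and 135 CPM in *sma-9* libraries, against 315, 317 and 308 CPM in wild-type (log2 difference −0.99, standard error 0.13, adjusted p = 0.00267).

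The serine hydroxymethyltransferase gene *mel-32* differed by −0.65 (adjusted p = 0.0053). The S-adenosylmethionine synthetase gene *sams-1* had 1208, 1388 and 1121 CPM in *sma-9* libraries, against 1776, 1629.5 and 1989 CPM in wild-type (log2 difference −0.54, adjusted p = 0.0208). *ahcy-1*, the gene of adenosylhomocysteinase, *metr-1*, the gene of methionine synthase, and *mthf-1*, the gene of methylenetetrahydrofolate reductase, differed by −0.62, −0.59 and −0.52. The block called the same number, 0 higher and 8 lower, while 4 calls were left by quantile normalization and without *sma-9* replicate 3, and 5 without wild-type replicate 2. *sams-1* lost its call under equal totals, quantile normalization and 5 other alternatives.

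**Figure D4:**
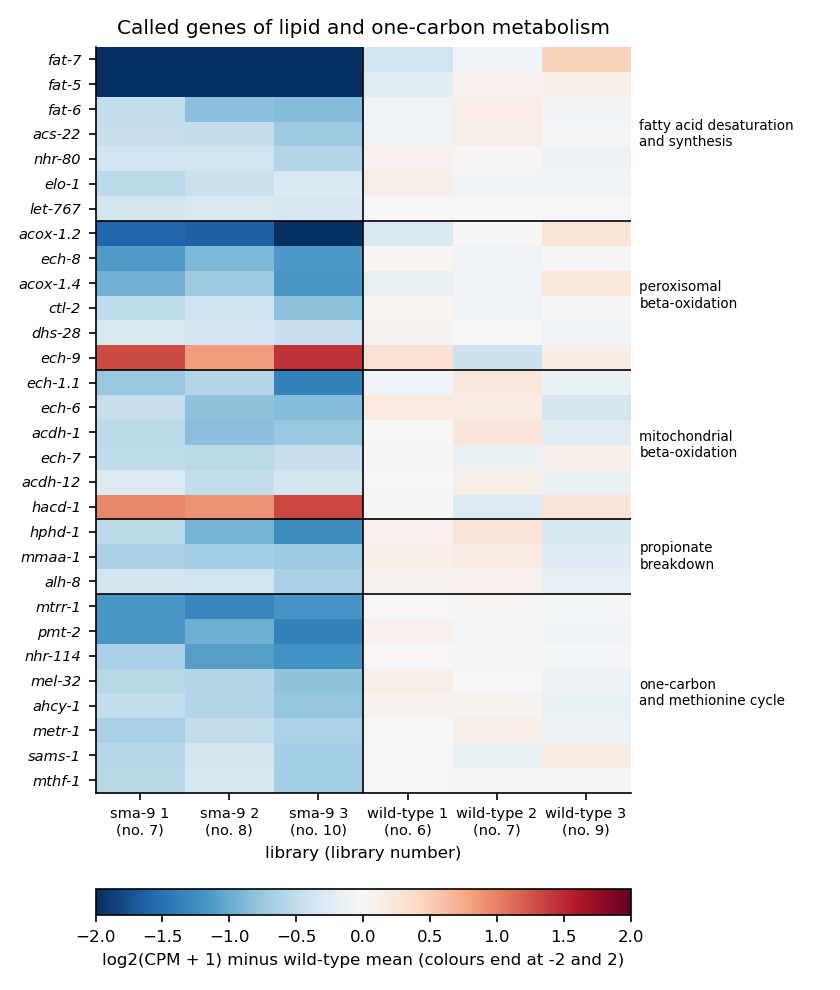
Colours give each library's log2(CPM + 1) minus the wild-type mean, for the called genes of 5 metabolic lists, with the 3 *sma-9* libraries left of the 3 wild-type libraries and library numbers in brackets. A gene of several lists is drawn once, under the first, and in the *sma-9* columns every gene but *ech-9* and *hacd-1* is blue, which marks values below the wild-type mean.

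Genes of innate immunity moved in both directions. Of 50 tested effectors and regulators, 6 were higher and 10 lower (32% called), with a median log2 difference of −0.02. *lys-4*, which encodes a lysozyme, had 82.1, 91.0 and 78.0 CPM in *sma-9* libraries, against 357, 269 and 293 CPM in wild-type (log2 difference −1.85, adjusted p = 3.16e-05). Its neighbours *lys-5* and *lys-6* fell by 0.86 and 0.85 on the log2 scale at levels of a few CPM. *lys-7*, a lysozyme gene known as a DAF-16 target, was higher, with 124, 114.5 and 101 CPM in *sma-9* libraries, against 50.9, 40.7 and 45.4 CPM in wild-type (log2 difference 1.29, adjusted p = 0.00454). Of the 8 tested genes of the class, 1 was higher and 3 lower, and the same held with the block.

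C-type lectin genes gave more calls than any other class with at least 8 tested genes. Of 96 tested *clec* genes, 12 were higher and 20 lower (33.3% called). *clec-186* had 10.95, 15.2 and 10.6 CPM in *sma-9* libraries, against 46.6, 52.1 and 43.4 CPM in wild-type (log2 difference −1.88, adjusted p = 4.32e-05). *clec-52* had 9.99, 19.4 and 12.7 CPM in *sma-9* libraries, against 62.7, 37.4 and 51.0 CPM in wild-type (log2 difference −1.79, adjusted p = 0.00206), and *clec-82* had 5.18, 5.49 and 5.14 CPM in *sma-9* libraries, against 0.538, 0.943 and 1.23 CPM in wild-type (log2 difference 1.74, adjusted p = 0.000484). Over the alternatives the class held 20 to 37 calls, with 20 without *sma-9* replicate 3 and 21 without wild-type replicate 1. Among other immune genes, *irg-5*, *dod-17* and *irg-3* were lower (−1.605, −1.03 and −0.84), and *dod-22* and *sysm-1* were higher (1.496 and 1.43). *zip-11*, the gene of a bZIP factor of the infection response, had 4.84, 3.98 and 3.15 CPM in *sma-9* libraries, against 8.64, 9.29 and 6.29 CPM in wild-type (log2 difference −0.86, adjusted p = 0.0118), the reverse of *zip-10*.

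Calls among neuropeptide genes were all increases in the libraries labelled *sma-9*. Of 30 tested *flp* genes, which encode FMRFamide-like peptides, 9 were higher and 0 lower, with a median of 0.27. Of 63 tested *nlp* genes, which encode other neuropeptides, 8 were higher and 0 lower, with a median of 0.22. *flp-3* led the calls, with 31.2, 31.9 and 29.7 CPM in *sma-9* libraries, against 16.0, 17.9 and 17.6 CPM in wild-type (log2 difference 0.81, standard error 0.08, adjusted p = 0.000387). *flp-21* had 11.7, 13.8 and 12.2 CPM in *sma-9* libraries, against 9.47, 8.15 and 8.83 CPM in wild-type (log2 difference 0.47, adjusted p = 0.0201), and *flp-12* and *flp-5* differed by 0.44 and 0.42. The largest calls of the *nlp* class were *nlp-70* (0.64), *nlp-7* (0.61), *nlp-20* (0.50) and *nlp-68* (0.50).

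These increases were small, and their number varied with the scaling and the libraries fitted. Equal totals gave 16 *flp* and 13 *nlp* genes, all higher. With the block, 13 *flp* and 13 *nlp* genes were higher and 0 lower, whereas only the 6 libraries gave 2 *flp* and 3 *nlp* genes, all higher. Without *sma-9* replicate 2 there were 2 *flp* and 5 *nlp* calls, and without *sma-9* replicate 3 there were 2 *flp* calls. The medians of both classes were above 0 within each range of library numbers, at 0.17 and 0.37 for *flp* and 0.15 and 0.33 for *nlp*. The 20 pan-neuronal genes, which mark neurons as a whole, had 0 calls and within-range medians of 0.02 and −0.02. Whether the neuropeptide classes differ from the pan-neuronal genes was not tested.

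Insulin-like peptide genes went both ways. Of 20 tested *ins* genes, 2 were higher and 2 lower. *ins-7*, which encodes an insulin-like agonist, had 1.31, 0.936 and 1.19 CPM in *sma-9* libraries, against 0.344, 0.236 and 0.171 CPM in wild-type (log2 difference 0.78, adjusted p = 0.00327). *ins-35* had 8.25, 9.32 and 11.7 CPM in *sma-9* libraries, against 16.45, 20.4 and 25.8 CPM in wild-type (log2 difference −1.01, adjusted p = 0.0065). *ins-4* had 1.89, 2.31 and 2.24 CPM in *sma-9* libraries, against 7.24, 3.11 and 5.53 CPM in wild-type (log2 difference −0.95, adjusted p = 0.0313), and lost its call under 10 of 17 alternatives. *ins-27* was the other higher gene (0.46). The insulin signaling list as a whole had 1 higher and 3 lower of 24 tested genes. Its balance depended on single libraries, with 5 higher and 2 lower without wild-type replicate 3, and 1 higher and 1 lower without *sma-9* replicate 3 or wild-type replicate 1. Without *sma-9* replicate 2 the *ins* class had 1 higher and 1 lower gene.

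**Figure D5:**
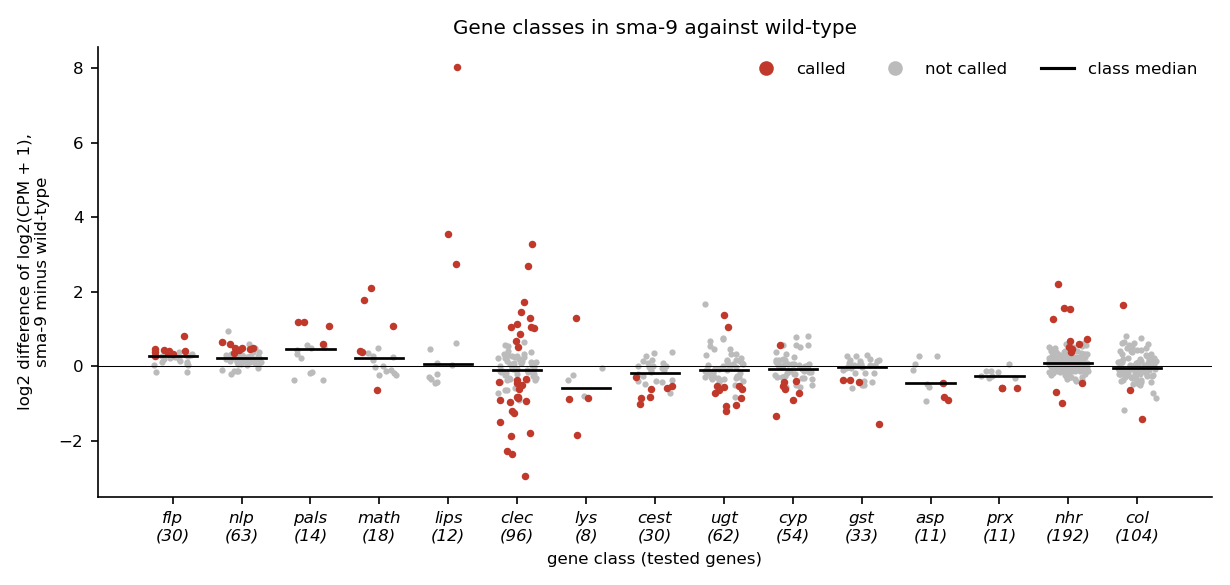
Each point is 1 tested gene, placed by its log2 difference of *sma-9* minus wild-type, with called genes in red and a black line at the class median. The *flp* and *nlp* calls all lie above 0, the *cest*, *gst*, *asp* and *prx* calls all lie below 0, and *clec* calls lie on both sides.

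Calls in classes of detoxification enzymes were mostly decreases. Of 62 tested *ugt* genes, which encode UDP-glucuronosyltransferases, 2 were higher and 10 lower, and *ugt-62* led with 72.4, 57.5 and 87.8 CPM in *sma-9* libraries, against 212, 135 and 157 CPM in wild-type (log2 difference −1.196, adjusted p = 0.00798). Of 54 tested cytochrome P450 (*cyp*) genes, 1 was higher and 7 lower, with *cyp-35D1* (−1.34) and *cyp-37A1* (−0.91) leading. Of 30 tested carboxylesterase (*cest*) genes, 0 were higher and 7 lower, with *cest-2.1* (−1.02) and *cest-6* (−0.85) leading. Of 33 tested glutathione S-transferase (*gst*) genes, 0 were higher and 4 lower. Among these, *gst-10* had 32.9, 31.5 and 24.6 CPM in *sma-9* libraries, against 87.9, 93.8 and 83.6 CPM in wild-type (log2 difference −1.55, standard error 0.11, adjusted p = 8.04e-05). In the wider list of oxidative stress and detoxification genes, the catalase genes *ctl-1* and *ctl-2*, which are neighbours on chromosome II, were lower too (−0.52 and −0.58), and lost the call under 8 and 3 of the 18 alternatives. Without *sma-9* replicate 3 the calls were 7 in the *ugt* class, 5 in *cyp*, 4 in *cest* and 1 in *gst*. The *gst* class also had 1 call without wild-type replicate 1 and 2 without *sma-9* replicate 2 or wild-type replicate 2, the *cest* class had 4 without *sma-9* replicate 2, and the *ugt* class had 18 without wild-type replicate 3. Equal totals gave 1 lower *gst* gene, 5 lower *cest* genes, 2 higher and 4 lower *cyp* genes and 2 higher and 7 lower *ugt* genes. Only the 6 libraries gave 1 lower *gst*, 4 lower *cest*, 4 lower *cyp* and 1 higher and 7 lower *ugt* genes.

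The nuclear hormone receptor class, the largest examined with 192 tested *nhr* genes, had 10 higher and 3 lower (6.77% called, near the 6.88% of all genes). After *nhr-74*, the largest increases were in *nhr-244* (1.57), *nhr-265* (1.54) and *nhr-155* (1.27). For *nhr-265* and *nhr-155* the library with number 9 was the highest wild-type library and that with number 7 the lowest *sma-9* library, and their terms for the number range were 1.08 and 0.86. *nhr-155* lost its call under 11 and *nhr-265* under 6 of 17 alternatives. The class held 32 calls, 25 of them higher, without wild-type replicate 3, and 6 or 7 without wild-type replicate 1, wild-type replicate 2 or *sma-9* replicate 3. The *math* class, of MATH domain proteins, had 5 higher and 1 lower of 18, led by *math-38* with 3.20, 4.28 and 5.90 CPM in *sma-9* libraries, against 0.0897, 0.147 and 0.571 CPM in wild-type (log2 difference 2.09, adjusted p = 0.000948). The *pals* class, known for the response to intracellular pathogens, had 4 higher and 0 lower of 14, led by *pals-14* with 1.52, 1.98 and 2.06 CPM in *sma-9* libraries, against 0.299, 0.162 and 0.257 CPM in wild-type (log2 difference 1.1996, adjusted p = 0.000286). The *pals* calls were of genes with few reads, and 0 remained when a mean of at least 5 CPM was required.

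Single genes of known regulators were among the calls. *daf-19*, which encodes the RFX factor of ciliated sensory neurons, had 121, 138 and 111 CPM in *sma-9* libraries, against 30.5, 31.02 and 34.3 CPM in wild-type (log2 difference 1.91, standard error 0.10, adjusted p = 7.52e-06). *lin-8*, a synthetic multivulva class A gene, which acts against ectopic vulval induction, had 35.6, 30.3 and 29.3 CPM in *sma-9* libraries, against 9.47, 10.4 and 11.2 CPM in wild-type (log2 difference 1.52, standard error 0.10, adjusted p = 2.93e-05). *lin-56*, another gene of that class, was higher as well (log2 difference 0.75, adjusted p = 0.00227).

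Of 20 tested genes on the endoplasmic reticulum folding list, 2 were higher and 0 lower, and only *hsp-4* of these encodes a chaperone. *hsp-4*, which encodes the inducible BiP chaperone, had 311, 333 and 252 CPM in *sma-9* libraries, against 207, 197 and 139 CPM in wild-type (log2 difference 0.73, adjusted p = 0.0246), and lost its call under 4 of the 18 alternatives, those without *sma-9* replicate 1 or 2 among them. *ckb-2*, a choline kinase gene known as a target of the unfolded protein response after lipid imbalance, had 28.2, 27.6 and 29.1 CPM in *sma-9* libraries, against 16.08, 12.33 and 12.1 CPM in wild-type (log2 difference 1.02, adjusted p = 0.00446). Of 18 cytosolic and mitochondrial chaperone genes, 1 was lower, the mitochondrial chaperonin gene *hsp-60* (log2 difference −0.45, adjusted p = 0.013), whose call was lost under 4 of the 18 alternatives, equal totals and quantile normalization among them. All 18 tested ribosome biogenesis genes had log2 differences below 0 (median −0.24), but 2 were called, *nol-14* (−0.33) and *pro-1* (−0.33). The block called 8 of these 18 lower, equal totals 0, and the fits without *sma-9* replicate 2, wild-type replicate 1 or wild-type replicate 2 called 1. Without *sma-9* replicate 1 there were 6 and without wild-type replicate 3 there were 4. Of 35 respiratory chain genes, 1 was lower, *nuo-5* (−0.29), whose call was lost under 11 of the 18 alternatives, and 20 were called lower in the numbers 8 to 10 by the term for the range.

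Genes of the cuticle, of moulting and of stage gave few calls. Of the tested *col* genes, 1 was higher and 2 lower (2.88% called). For this class the term for the number range had a median of −0.58, with 51 genes called lower and 1 higher in the numbers 8 to 10. The median *sma-9* difference of the class was 0.006 within the numbers 6 and 7 and 0.38 within the numbers 8 to 10. *col-101* had 5.11, 9.53 and 4.75 CPM in *sma-9* libraries, against 1.26, 0.825 and 1.88 CPM in wild-type (log2 difference 1.65, adjusted p = 0.00397), and *col-94* had 0.192, 0.134 and 0.0816 CPM in *sma-9* libraries, against 3.16, 1.99 and 1.18 CPM in wild-type (log2 difference −1.405, adjusted p = 0.00398). Of 24 furrow and body shape collagen genes, 0 were higher and 1 was lower, which was again *col-94*, a gene with few reads. This list had 0 calls when a mean of at least 5 CPM was required. Still, 21 of its log2 differences were below 0 (median −0.38). The term for the number range had a median of −0.39 over the same 24 genes, with 10 called lower in the numbers 8 to 10. The list had 5 lower genes with the library number block on 6 libraries and 2 without *sma-9* replicate 1 or wild-type replicate 3. The *col* class had 7 calls without wild-type replicate 1 (5 higher, 2 lower) and 7 without wild-type replicate 3 (1 higher, 6 lower).

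Of 28 genes of the precuticle and moulting, 2 were lower, the period homolog *lin-42* (log2 difference −0.57, adjusted p = 0.0429; lost under 10 of the 18 alternatives) and the moulting protease gene *nas-37* (log2 difference −0.53, adjusted p = 0.0263; lost under 8). The list had 7 lower genes with the library number block on 6 libraries, and 0 without *sma-9* replicate 2, *sma-9* replicate 3 or wild-type replicate 2. The term for the range was positive there, with a median of 0.31 and 12 genes called higher in the numbers 8 to 10. Of 14 heterochronic and stage genes, 1 was lower, again *lin-42*, and 8 were called higher in the numbers 8 to 10. Of 29 genes of DNA replication and the cell cycle, 0 were called for *sma-9* in limma or in voom. Among them 3 had an unadjusted p under 0.05 in limma, again without a share over all tested genes. Genes that cycle with moults thus differed between libraries of the same genotype, and their part in the *sma-9* differences was not tested.

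The 2 mutants were also compared directly, without wild-type. Between *sma-9* and *sma-3* libraries 2315 genes (17.7%) were called, 1193 higher (9.1%) and 1122 lower (8.56%) in *sma-9*, but all *sma-3* libraries carry the numbers 14 to 16, so that genotype and number cannot be told apart in this comparison. *lips-11* had 6.78, 4.09 and 2.86 CPM in *sma-3*, and the difference of *sma-9* minus *sma-3* was 6.89 (adjusted p = 2.89e-07). *haf-6* had 44.9, 47.2 and 46.5 CPM in *sma-3* (*sma-9* minus *sma-3* −2.38, adjusted p = 5.59e-08), and *srw-85* had 34.3, 31.5 and 30.3 CPM (−3.92, adjusted p = 1.41e-08).

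*fat-7* had 25.98, 26.4 and 23.1 CPM in *sma-3*, so that its *sma-9* level was the lower one (−2.67, adjusted p = 3.28e-05), and *fat-5* likewise had 16.17, 20.9 and 17.6 CPM in *sma-3* (−2.49, adjusted p = 0.000104). *fat-6* had 336, 362 and 337 CPM in *sma-3*, which overlapped its level in *sma-9* (−0.03, adjusted p = 0.878). *lys-4* was lower in *sma-9* than in *sma-3* (−1.59, adjusted p = 5.34e-05), and so was *pho-1* (−0.60, adjusted p = 0.00106). *nhr-114*, *acdh-1* and *sams-1* were not called between the mutants (0.31, 0.00 and −0.13). The intestine markers had 1 gene higher and 8 lower in *sma-9* than in *sma-3*, and the peroxisomal β-oxidation genes 0 higher and 10 lower.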

How the data were processed

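Total RNA from late L2 worms was polyA selected and sequenced. Per the labels and methods, the authors mapped and counted reads with STAR (version 2.5.1a) and normalized with edgeR. The deposited values are log2 CPM with a prior averaging 2 reads. The strand setting and the treatment of reads fitting several genes are not given in the sources used here. The prior was removed, which recovered whole reads (tolerance 0.02) for 100% of values. Libraries were paired-end, and among the lower recovered counts 57.5 to 62.1% were even. Whether both mates of a pair were counted was not tested. Libraries held 69284675 to 79350040 reads on genes in *sma-9* and 69602298 to 73484382 in wild-type. With library sizes scaled by the authors' normalization factors, 3 reads equal 0.035 to 0.0449 CPM. These limits cover counting error only. Symbols and positions are from the WBcel235 annotation.

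Genes reaching 1 CPM in 3 or more of 9 libraries were fitted as log2(CPM + 1) with limma (version 3.58.1, R 4.3.3, intensity trend, 3 genotype coefficients, 9 libraries), two-sided, with Benjamini-Hochberg adjustment; all adjusted p-values are limma's. The fit was tested on simulated data. The design foresaw this test for log values.

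The comparison, its 31 gene lists (609 entries, 8 without a matching symbol) and the tests were chosen with earlier results of these data known. Gene classes are name prefixes with at least 8 tested genes (176). Lists were described by counts and medians. Genes were named by a rule: the 12 largest called changes per direction without overlap, up to 4 called genes per list or class, the DBL-1 list and genes the study names. *ahcy-1*, *act-5*, *asns-1*, *clec-52*, *clec-82*, *dod-17*, *dod-22*, *ech-7*, *elt-2*, *elo-1*, *irg-3*, *irg-5*, *metr-1*, *mthf-1*, *nhr-80* and genes outside lists in the closing section were named after their values were seen. Alternatives were the pseudocount, filter, scaling, trend, voom, blocks, the libraries fitted and leaving out each library. No sequences were used.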

Additional observations from a re-analysis of the deposited data

How the results depend on the processing

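The number of genes called in *sma-9* against wild-type, 901, stayed within 1.5 times under equal totals, quantile normalization, both pseudocounts, no filter, a mean of at least 5 CPM, voom on the recovered reads (883 genes), no intensity trend, the library number block on 6 libraries and the replicate block. It moved to 1490 with the library number block, 445 with only the 6 libraries and 204 with at least a 2-fold change. Leaving out 1 library gave 487 to 1569 genes, with 1569 without wild-type replicate 3, 584 without wild-type replicate 2, 555 without *sma-9* replicate 2 and 487 without *sma-9* replicate 3. The calls were 396 higher and 505 lower, and 554 higher and 261 lower with equal totals. Against *sma-3*, 2315 genes were called, 970 to 2127 without 1 library (970, 1005 and 1472 without *sma-3* replicates 2, 3 and 1, and 1468 and 1330 without *sma-9* replicates 2 and 3) and 507 with a 2-fold change; the cause was not tested. Deviations of *sma-9* and wild-type replicates with the same replicate number correlated at 0.175, −0.629 and 0.236, so replicate numbers were not taken as pairs. The highest of all correlations, 0.611, joined *sma-9* replicate 1 and wild-type replicate 2, which carry the same library number. The value was 0.581 for *sma-9* replicate 2 with wild-type replicate 3, and −0.587 for *sma-9* replicate 1 with wild-type replicate 3. With the replicate block 613 genes were called against wild-type and 1563 against *sma-3*.

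Of the named called genes, 125 were called under each of 18 alternatives in which they were tested, 110 lost the call under at least 1 of them, and 0 changed direction. Changes of sign were confined to 7 uncalled DBL-1 pathway genes. *dbl-1* moved to 0.1097 with equal totals and 0.0172 with quantile normalization, *kin-29* to 0.0875 and 0.0312, and *lon-2* to 0.0763 with equal totals. *drag-1* moved to −0.0291 with the library number block, on 9 or 6 libraries, and to −0.009 with quantile normalization. Without 1 library, *adt-2* ran from −0.0097 to 0.2292, *crm-1* from −0.0033 to 0.2972, *dbl-1* from −0.0619 to 0.0517, *drag-1* from −0.038 to 0.0988, *kin-29* from −0.0956 to 0.0699, *lon-2* from −0.1056 to 0.0149 and *lon-3* from −0.1257 to 0.2351.

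The motif search in promoters was not run, as no promoter sequence was used here. At these depths a gene with 3 reads or fewer in a library gives no usable level, and each genotype has 3 libraries.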

Other observations

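Several metabolic genes outside the gene lists changed by more than most called genes, and were chosen after their values were seen. The trehalase gene *tre-2* had 105, 107 and 117 CPM in *sma-9* libraries, against 35.9, 38.7 and 33.2 CPM in wild-type (log2 difference 1.58, adjusted p = 6.7e-06). The arginase gene *argn-1* had 240.2, 209.7 and 210.2 CPM in *sma-9* libraries, against 70.5, 69.4 and 41.1 CPM in wild-type (log2 difference 1.89, adjusted p = 0.000417). *gfat-1*, the gene of the first enzyme of the hexosamine route, had 298, 303 and 211 CPM in *sma-9* libraries, against 96.8, 103 and 100.01 CPM in wild-type (log2 difference 1.41, adjusted p = 0.000232). *pmp-5*, the gene of a peroxisomal membrane transporter, had 218, 243 and 215 CPM in *sma-9* libraries, against 590.3, 642 and 576 CPM in wild-type (log2 difference −1.42, adjusted p = 3.16e-05). *hmit-1.2*, beside *hmit-1.1* on chromosome V, had 6.17, 3.20 and 3.36 CPM in *sma-9* libraries, against 17.9, 13.6 and 7.10 CPM in wild-type (log2 difference −1.36, adjusted p = 0.0395).

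Some called genes were neighbours. Runs of at least 3 adjacent tested genes called in the same direction numbered 16 and held 50 genes, and no expected number was computed. Members of 1 class made up some of the runs, such as *lips-11*, *lips-12* and *lips-13* (higher; chromosome II, 1108841 to 1118042), *lys-4*, *lys-5* and *lys-6* (lower; chromosome IV, 11621429 to 11627947), *clec-62*, *clec-63* and *clec-64* (lower; chromosome II, 12893062 to 12900439) and *clc-23*, *clc-25* and *clc-26* (higher; chromosome III, 1020954 to 1031065). Such copies can share reads. Other runs joined unlike genes, as *fat-7*, *F10D2.10* and *ugt-39* (lower; chromosome V, 7151353 to 7159235).

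Chromosome V had the highest share of called genes, 117 higher and 124 lower of 2652 tested (9.09%), and chromosome III the lowest, 42 higher and 64 lower of 2052 (5.17%). On chromosome V between 17000000 and 17499999, 4 genes were higher and 4 lower of 19 tested (42.1%), the highest share among 201 windows of 500000 bases with at least 15 tested genes. Within 1000000 bases of *sma-9* on the X chromosome, 6 genes were higher and 10 lower of 267 tested (5.99%).

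A few genes were close to silent in 1 genotype alone. *Y102A5C.36*, the neighbour of *WBGene00014954* and *WBGene00014955*, had 0 reads in each of the 3 *sma-9* libraries, against 1.78, 2.28 and 1.23 CPM in wild-type. *WBGene00235319* had 0, 0 and 3 reads in *sma-9* libraries, against 302, 303 and 309 reads in wild-type. *F58D2.4* had 1.36, 2.05 and 1.55 CPM in *sma-9* libraries, against 0, 0 and 2 reads in wild-type. The *sma-3* libraries had 1.80, 1.31 and 1.62 CPM of *Y102A5C.36*, 6.61, 5.97 and 6.11 CPM of *WBGene00235319* and 0, 0 and 2 reads of *F58D2.4*.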
